A study of Homo sapiens with 6 samples.

Results

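Urokinase (PLAU), the tissue kallikreins KLK10 and KLK12, and the protease inhibitors SERPINA3 and SPINK1 were followed in AsPC-1, an established human pancreatic cancer cell line. These 5 genes were chosen by their symbols, and each matched 1 of the 753 genes in the table of gene-level values that the authors deposited. The 3 shTMPRSS4 libraries came from AsPC-1 cells whose lentivirus carried a hairpin RNA directed at TMPRSS4, itself a serine protease anchored in the cell membrane. The 3 control libraries came from AsPC-1 cells given a control lentivirus, so all 6 carry a lentivirus. The labels do not say whether the replicates were separate cultures, how many hairpins or clones were used, or how long after infection the RNA was taken. P-values therefore measure the spread between these samples, which may be technical.

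Serine proteases cut proteins with a reactive serine, and most are secreted as inactive precursors that another protease must cut. Urokinase turns plasminogen into plasmin, which digests fibrin and matrix proteins around cells. Tissue kallikreins are secreted trypsin-like or chymotrypsin-like enzymes encoded side by side in 1 gene cluster. Serpins trap a protease by changing shape after being cut, whereas Kazal inhibitors such as SPINK1 block the active site of trypsin, and SPINK1 is best known as the pancreatic secretory trypsin inhibitor.

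The libraries held 53300000, 50400000 and 46800000 reads in shTMPRSS4 replicates 1, 2 and 3 and 57200000, 37200000 and 30200000 reads in control replicates 1, 2 and 3, as recovered from the ratio of counts to FPKM (fragments scaled to gene length and library depth). In the authors' deposited table every gene differed by 1 or more on the log2 scale, with a false discovery rate (FDR) no higher than 0.0490, so the genes were listed because they differed between these same libraries. A test on them is therefore a description. At a threshold of 0.05 on the Benjamini-Hochberg adjusted p of edgeR's quasi-likelihood test, 699 of 705 tested genes (99.1%) passed, of which 517 (73.3%) were higher and 182 (25.8%) lower in shTMPRSS4 libraries. The 5 members were all tested and all passed, with 2 higher and 3 lower, and a share near the background says nothing particular about them. TMPRSS4 and the markers of ductal carcinoma cells were not among the 753 listed genes, so neither the knockdown nor the cell type was checked. Whether TMPRSS4 missed the thresholds of the selection or was left out for another reason is not known, and a fall of its RNA is not shown. Of the markers of other cells, 1 of 8 acinar, 1 of 8 fibroblast and 1 of 9 immune and endothelial genes were in the table, namely CELA3A at 3.59 and 0.293 FPKM, FAP at 1.80 and 0.513 FPKM and PECAM1 at 0.197 and 0.523 FPKM in shTMPRSS4 and control libraries (means, n = 3 each). Their part in the results below was not tested, and in bulk RNA fewer cells of a type and less RNA per cell cannot be told apart.

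Urokinase and KLK10 fell to about the same extent, KLK12 and SPINK1 rose, and SERPINA3 fell least. In the shTMPRSS4 libraries the order of mean levels was SPINK1, KLK12, SERPINA3, PLAU and KLK10, against PLAU, SERPINA3, KLK10, SPINK1 and KLK12 in the control libraries. Within shTMPRSS4 libraries the values of KLK12 and SERPINA3 overlapped, as did those of SERPINA3 and PLAU. Within control libraries PLAU overlapped SERPINA3, and KLK10 overlapped SPINK1. SPINK1 stood above all the other members in the shTMPRSS4 libraries without overlap, and KLK12 stood below all of them in the control libraries. The shTMPRSS4 and control libraries did not overlap for any of the 5 members, and the same held for 736 of the 753 genes of the table (97.7%), which were selected for a difference between these libraries.

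**Figure D1:**
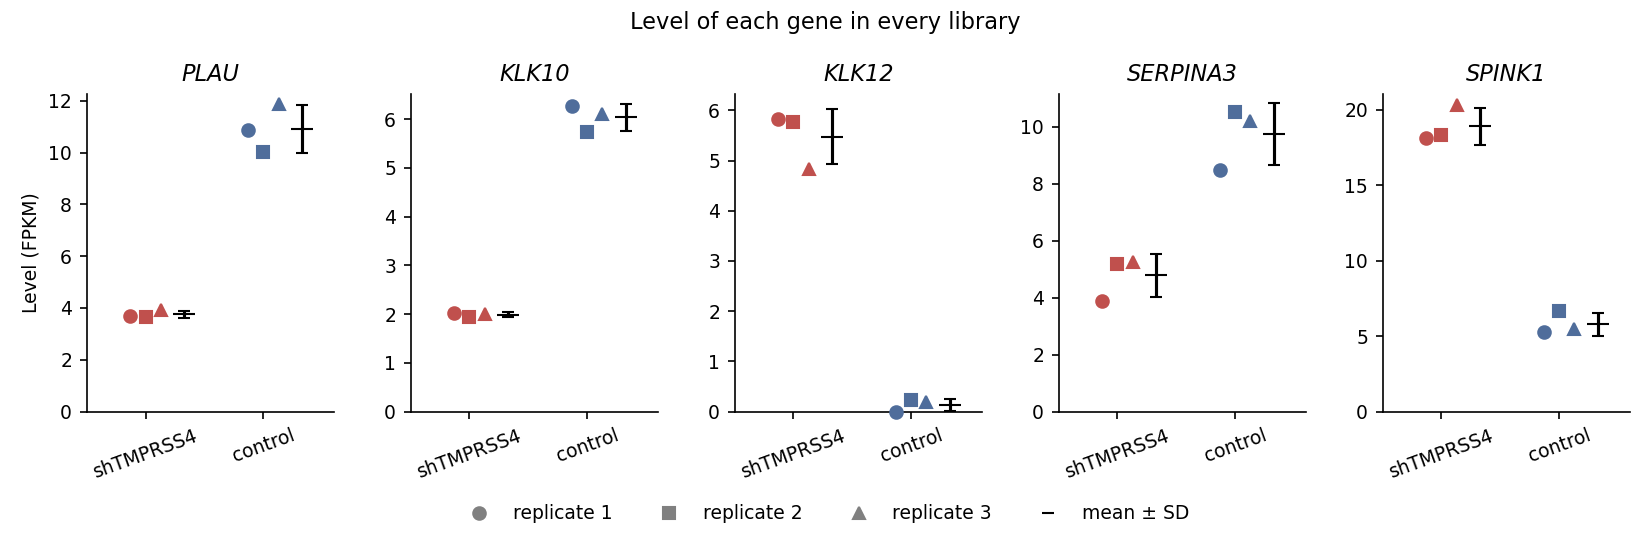
Level in FPKM (vertical axis, from 0) of the 5 genes in each library, with 1 panel a gene; symbols mark the replicate and black bars the mean ± SD of 3 libraries. The shTMPRSS4 and control libraries do not overlap in any panel, as in 97.7% of the genes of the table, and KLK12 lies between 0 and 0.23 FPKM in control libraries.

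The promoter sequences below belong to the members with the most similar profiles, PLAU and KLK10, and to the members that moved the other way, KLK12 and SPINK1. Each is the run of 250 bases before a RefSeq transcription start (GRCh38.p14), read 5′ to 3′ on the gene's strand. Capitals mark matches on either strand to any of 5 motifs, namely the AP-1 motif TGANTCA, the TATA box TATAAA, the core of hypoxia response elements ACGTG, the E-box CANNTG and the STAT motif TTCNNNGAA.
PLAU, chr10:73910882-73911131, plus strand: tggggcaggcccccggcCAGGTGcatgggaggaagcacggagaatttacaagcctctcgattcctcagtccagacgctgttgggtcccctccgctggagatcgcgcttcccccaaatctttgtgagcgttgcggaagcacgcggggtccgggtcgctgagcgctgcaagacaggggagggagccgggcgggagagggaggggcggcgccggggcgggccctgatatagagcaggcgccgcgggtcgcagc
KLK10, chr19:51019710-51019959, minus strand: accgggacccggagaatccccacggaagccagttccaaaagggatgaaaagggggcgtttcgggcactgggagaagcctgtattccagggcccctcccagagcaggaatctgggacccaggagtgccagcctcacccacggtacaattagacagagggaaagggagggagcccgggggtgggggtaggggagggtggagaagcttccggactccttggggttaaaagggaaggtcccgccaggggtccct
KLK12, chr19:51035003-51035252, minus strand: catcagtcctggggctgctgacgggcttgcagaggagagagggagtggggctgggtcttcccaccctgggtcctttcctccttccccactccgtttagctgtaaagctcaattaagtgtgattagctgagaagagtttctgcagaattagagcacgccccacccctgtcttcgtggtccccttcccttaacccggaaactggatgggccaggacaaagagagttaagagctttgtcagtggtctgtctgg
SPINK1, chr5:147831672-147831921, minus strand: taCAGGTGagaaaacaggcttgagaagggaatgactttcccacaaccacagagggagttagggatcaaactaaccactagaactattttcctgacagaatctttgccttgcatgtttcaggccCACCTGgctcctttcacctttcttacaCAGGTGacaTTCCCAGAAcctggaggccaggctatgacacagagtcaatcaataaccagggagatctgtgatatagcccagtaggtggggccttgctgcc

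PLAU had 1 E-box, 233 bases before the start. KLK10 and KLK12 had no match to any of the 5 motifs in the windows shown. None of the 4 GENCODE coding transcripts of KLK10, or of the 4 of KLK12, began near a RefSeq start used here. The KLK10 window shown lies inside the annotated gene, as does most of the KLK12 window, so these windows may not be their promoters. The PLAU window also lies inside its annotated gene, and the SPINK1 window does so in part. Near their starts began 2 of 3 GENCODE coding transcripts of PLAU and 1 of 2 of SPINK1. SERPINA3, whose window is not printed, had 2 E-boxes, 111 and 81 bases before the start. SPINK1 had 3 E-boxes, 248, 127 and 100 bases before the start, and 1 STAT motif, 91 bases before it. The windows differed in base composition, with 68.8% G and C in PLAU, 62.8% in KLK10, 55.2% in KLK12 and 48.8% in SPINK1. Among all 35116 RefSeq windows of the same length, 61.8% had at least 1 E-box and 10.4% at least 3, 6.57% had a STAT motif, 6.57% an AP-1 motif, 10.7% a TATA box and 18.5% the hypoxia core. RefSeq lists a second start for PLAU and for KLK10. The other PLAU window had none of the 5 motifs, and the other KLK10 window had 1 hypoxia core, 137 bases before that start. A match is a match of letters only, and the files do not show which start was used.

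PLAU (ENSG00000122861, GRCh38 chromosome 10, 73909177 to 73917497, plus strand) had 3.68, 3.67 and 3.92 FPKM in shTMPRSS4 replicates 1, 2 and 3, against 10.87, 10.02 and 11.87 FPKM in control replicates 1, 2 and 3. The highest shTMPRSS4 library was far below the lowest control library. These levels rest on 356, 336 and 333 counts in shTMPRSS4 libraries and 1129, 677 and 651 counts in control libraries. The mean was 3.76 ± 0.142 FPKM in shTMPRSS4 libraries and 10.9 ± 0.926 FPKM in control libraries (SD, n = 3 each), 2.91-fold lower in shTMPRSS4 libraries. On the log2 scale of depth-scaled counts PLAU differed by -1.54 ± 0.08 (SE), and its adjusted p in edgeR's test was 1.67e-07. In size its fold lay near the middle of the table, since 49.5% of the genes had a smaller one in the authors' deposited table. C10orf55, on the opposite strand, overlaps PLAU and holds 24.1% of its 31-base runs. The labels describe no strand-specific library step, so reads of the overlapping gene may be included.

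Of 21 genes of the plasminogen activation system, PLAU and SERPINA5 were in the table and both fell, where 25.8% of all 705 tested genes were lower. Their median log2 fold change was -1.56, against 1.29 for all 705 tested genes. Since every listed gene differed by 1 or more, the median of so short a list mainly restates its direction. SERPINA5, the protein C inhibitor, which also inhibits urokinase, had 4.77, 5.30 and 4.99 FPKM in shTMPRSS4 libraries, against 14.60, 14.93 and 15.71 FPKM in control libraries. The inhibitor thus differed by a log2 fold change of -1.59 ± 0.05, close to that of the protease. The receptor PLAUR and plasminogen were not analysed here.

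KLK10 (ENSG00000129451, GRCh38 chromosome 19, 51012739 to 51020175, minus strand), a secreted kallikrein first described in normal breast epithelial cells, had 2.03, 1.94 and 2.00 FPKM in shTMPRSS4 libraries, against 6.26, 5.73 and 6.11 FPKM in control libraries. Replicates agreed most closely for this member, with a coefficient of variation of 2.30% in shTMPRSS4 libraries and 4.53% in control libraries. The counts were 221, 200 and 191 in shTMPRSS4 libraries and 732, 436 and 377 in control libraries. KLK10 was 3.03-fold lower in shTMPRSS4 libraries by mean FPKM, with a log2 fold change of -1.60 ± 0.04 (SE) and an edgeR adjusted p of 3.59e-07. The short antisense gene AC011473.2 lies within it and holds 4.90% of its 31-base runs, and 11.4% were found in any other gene.

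KLK12 (ENSG00000186474, GRCh38 chromosome 19, 51029092 to 51035230, minus strand), a trypsin-like kallikrein, had 13 counts in all in the control libraries and a level that overlapped that of SERPINA3 in the shTMPRSS4 libraries. It had 5.83, 5.77 and 4.84 FPKM in shTMPRSS4 libraries, against 0, 0.23 and 0.18 FPKM in control libraries. The counts were 293, 274 and 213 in shTMPRSS4 libraries and 0, 8 and 5 in control libraries. A count of 0 in control replicate 1, the deepest library, allows up to 3 counts or 0.0557 FPKM. The 13 control counts carry an exact 95% Poisson interval of 6.92 to 22.2, and such intervals and floors cover counting error only. Mean FPKM was 40.1-fold higher in shTMPRSS4 libraries, and counts pooled per read of depth gave 49.7-fold. The log2 fold change with 0.5 added to depth-scaled counts was 6.08 ± 1.39 (SE), with an edgeR adjusted p of 2.14e-05. Its wide error came from control replicate 1, and without that library it was 4.68 ± 0.20. The antisense gene AC011473.3 overlaps KLK12 and holds 6.96% of its 31-base runs.

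KLK10 and KLK12 are close neighbours in the kallikrein cluster, with KLK11 in the 8.92 kb between them, and both are read from the same strand. Of the 15 kallikrein genes 4 were in the table, 3 lower and 1 higher, where 25.8% of all tested genes were lower. Their median log2 fold change was -1.36, against 1.29 for all tested genes, and mainly restates the direction of most of them. KLK11, a trypsin-like kallikrein, had 1.14, 1.18 and 1.28 FPKM in shTMPRSS4 libraries, against 2.09, 2.94 and 2.98 FPKM in control libraries. KLK7, the chymotrypsin-like kallikrein of the skin surface, had 0.35, 0.28 and 0.50 FPKM in shTMPRSS4 libraries, against 1.39, 1.55 and 1.02 FPKM in control libraries. Thus KLK7, KLK10 and KLK11 fell, and KLK12, next to KLK11, rose. Their log2 fold changes were -1.80 ± 0.29 for KLK7, -1.60 ± 0.04 for KLK10 and -1.13 ± 0.17 for KLK11 (SE). KLK8 and KLK9, which lie between KLK7 and KLK10, and KLK13, beyond KLK12, were not analysed here.

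**Figure D2:**
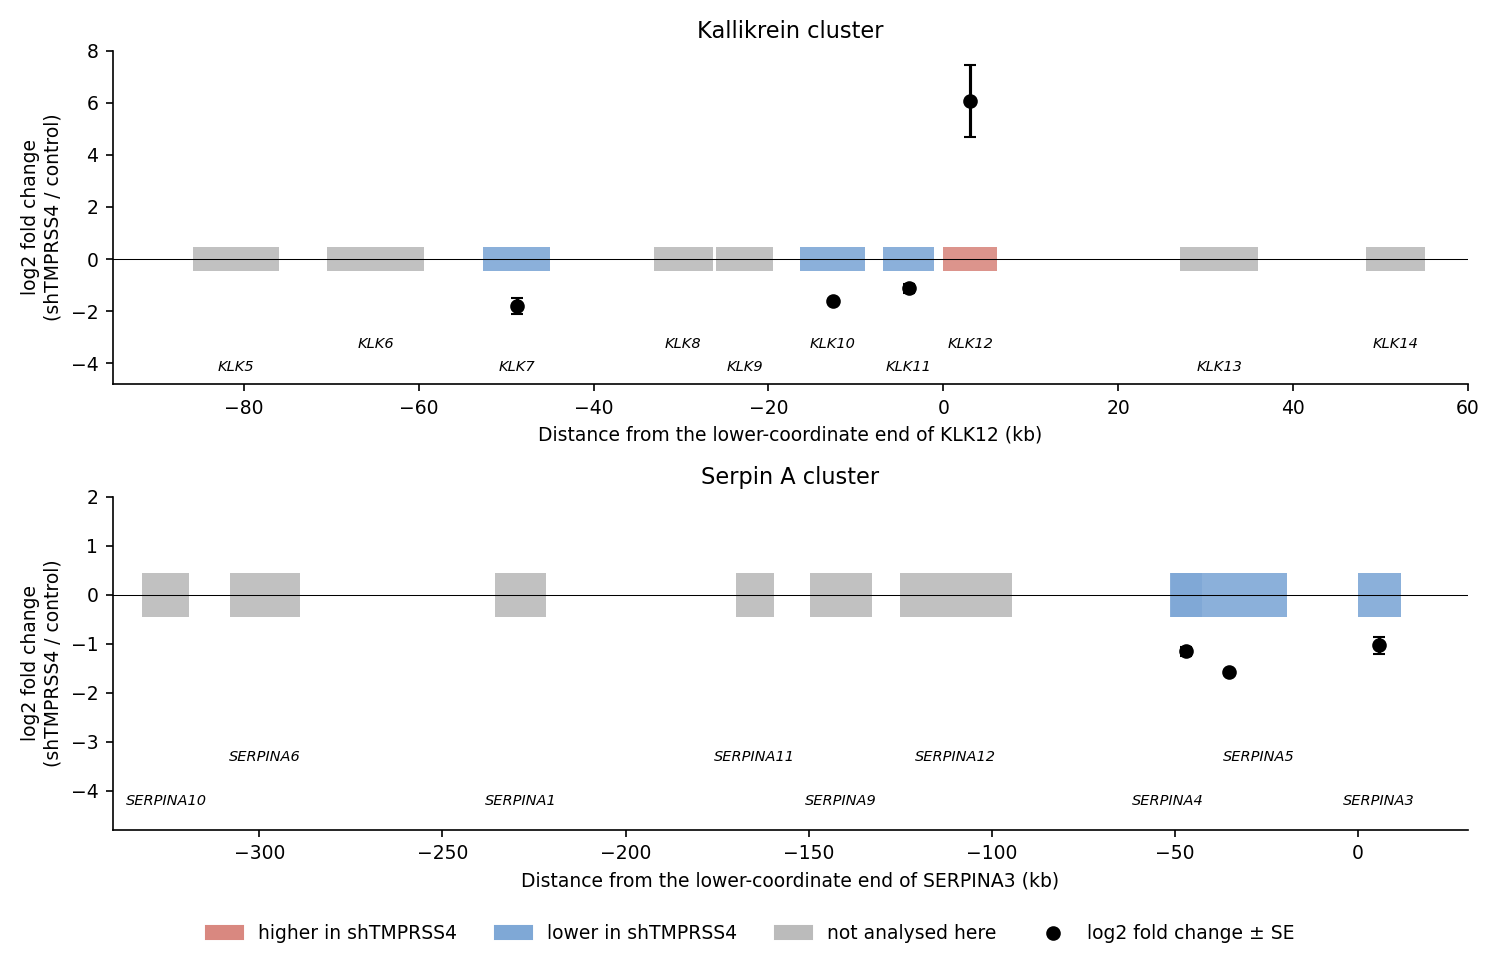
Log2 fold change of shTMPRSS4 over control (points, ± SE) for the genes of the kallikrein and serpin A clusters that were in the table, drawn over the genes as boxes along their distance in kb from KLK12 or SERPINA3. KLK7, KLK10, KLK11 and the 3 serpins lie below 0, KLK12 lies at 6.08, and grey boxes are genes not analysed here.

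Summed over these 4 kallikreins, the level was 9.35, 9.17 and 8.62 FPKM in shTMPRSS4 libraries, against 9.74, 10.45 and 10.29 FPKM in control libraries. The groups did not overlap, and the mean sum was 9.05 ± 0.380 FPKM in shTMPRSS4 libraries and 10.16 ± 0.372 FPKM in control libraries (SD, n = 3 each). KLK12 made up 62.4%, 62.9% and 56.1% of the sum in shTMPRSS4 libraries, against 0%, 2.20% and 1.75% in control libraries. The sum of KLK7, KLK10 and KLK11 alone was 3.57 ± 0.194 FPKM in shTMPRSS4 libraries and 10.02 ± 0.251 FPKM in control libraries (SD, n = 3 each).

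**Figure D3:**
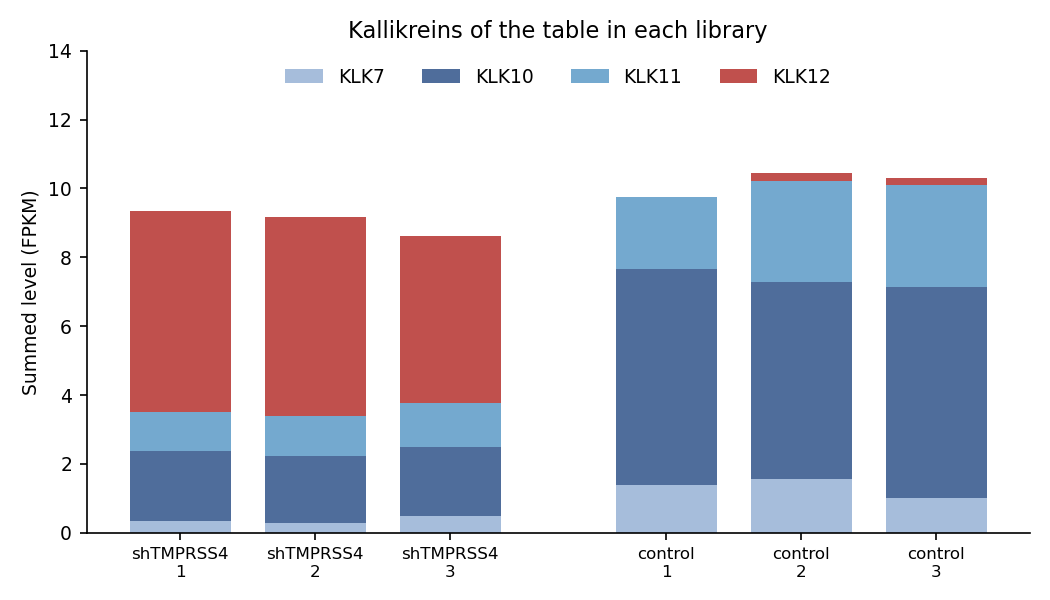
Level in FPKM of KLK7, KLK10, KLK11 and KLK12, stacked in 1 bar a library (bars start at 0; shTMPRSS4 libraries left, control libraries right). The bars reach 8.62 to 9.35 FPKM in shTMPRSS4 libraries and 9.74 to 10.45 FPKM in control libraries, and KLK12 fills 56.1% to 62.9% of an shTMPRSS4 bar and at most 2.20% of a control bar.

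The ratio of KLK12 to KLK10 within a library does not depend on how libraries are scaled to each other. It was 2.87, 2.97 and 2.42 in shTMPRSS4 libraries, against 0, 0.0401 and 0.0295 in control libraries. With 0.1 FPKM added to each level, the log2 ratio differed by 6.28 ± 0.58 (SE) between shTMPRSS4 and control libraries (two-sided exact permutation test, p = 0.1, the smallest that 3 against 3 allows; adjusted p = 0.1 over 2 ratios). KLK12 was listed as higher and KLK10 as lower, each without overlap, so this p was fixed in advance and only describes the selection. KLK12 was the higher of the pair in 3 of 3 shTMPRSS4 libraries and the lower in 3 of 3 control libraries. The size of this difference depends on the added value, at 7.75 with 0.01 FPKM and 3.75 with 1 FPKM.

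SERPINA3 (ENSG00000196136, GRCh38 chromosome 14, 94612377 to 94624055, plus strand), alpha-1-antichymotrypsin, an acute-phase inhibitor of chymotrypsin-like proteases, had 3.90, 5.19 and 5.25 FPKM in shTMPRSS4 libraries, against 8.49, 10.52 and 10.20 FPKM in control libraries. Replicate 1 was the lowest in each group, and the groups did not overlap. The counts were 342, 430 and 404 in shTMPRSS4 libraries and 799, 644 and 507 in control libraries. The mean was 4.78 ± 0.763 FPKM in shTMPRSS4 libraries and 9.74 ± 1.09 FPKM in control libraries (SD, n = 3 each), 2.04-fold lower in shTMPRSS4 libraries. This was a log2 fold change of -1.03 ± 0.17 (SE), which passed with edgeR (adjusted p = 5.08e-05). SERPINA3 was just inside the selection at an absolute log2 fold change of 1, since in the authors' deposited table only 3.45% of the genes had a smaller one. The gene AL049839.2, on the same strand, overlaps SERPINA3 and holds 30.4% of its 31-base runs, so its level depends on how shared reads were assigned.

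Of 36 serpin genes 3 were in the table, all lower, where 25.8% of all tested genes were lower. They lie side by side on chromosome 14 within 63.0 kb. The median log2 fold change of these 3 was -1.15, against 1.29 for all tested genes, and mainly restates their direction. SERPINA4, kallistatin, an inhibitor of tissue kallikrein, had 2.47, 2.10 and 2.10 FPKM in shTMPRSS4 libraries, against 4.97, 5.23 and 4.64 FPKM in control libraries. The log2 fold change was -1.15 ± 0.09 for SERPINA4 and -1.59 ± 0.05 for SERPINA5, which lies between SERPINA4 and SERPINA3. The annotated gene of SERPINA4 overlaps that of SERPINA5 on the same strand, so reads in the overlap may be shared. AL049839.2, which overlaps SERPINA3, also overlaps the end of SERPINA5 on that strand. The levels of these serpins may thus not be fully separate. Summed, the 3 serpins had 11.1, 12.6 and 12.3 FPKM in shTMPRSS4 libraries, against 28.1, 30.7 and 30.6 FPKM in control libraries. The other 6 genes of this cluster, SERPINA1 among them, were not analysed here.

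SPINK1 (ENSG00000164266, GRCh38 chromosome 5, 147824568 to 147831786, minus strand) had 18.12, 18.30 and 20.32 FPKM in shTMPRSS4 libraries, against 5.25, 6.65 and 5.47 FPKM in control libraries. All 3 shTMPRSS4 libraries stood well above the highest control library. The counts were 836, 798 and 822 in shTMPRSS4 libraries and 260, 214 and 143 in control libraries. The mean was 18.9 ± 1.22 FPKM in shTMPRSS4 libraries and 5.79 ± 0.753 FPKM in control libraries (SD, n = 3 each), 3.27-fold higher in shTMPRSS4 libraries. This was a log2 fold change of 1.71 ± 0.12 (SE), which passed with edgeR (adjusted p = 3.63e-07). Its nearest coding neighbour in the table, JAKMIP2, was barely expressed, with 0.09 FPKM in shTMPRSS4 libraries and 0.0267 FPKM in control libraries (means, n = 3 each). No single other gene held more than 1.66% of the 31-base runs of SPINK1, and 7.46% were found in any other gene.

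Of 28 Kazal, Kunitz and WAP-type inhibitors 3 were in the table and all 3 rose, namely SPINK1, SPINK4 and AMBP, with a median log2 fold change of 1.71 against 1.29 for all tested genes. SPINK4, a Kazal inhibitor made by goblet cells, had 30.03, 31.27 and 31.43 FPKM in shTMPRSS4 libraries, against 0.19, 0 and 0.07 FPKM in control libraries. The control values rest on 6 counts in all. AMBP, the precursor of alpha-1-microglobulin and the Kunitz inhibitor bikunin, had 3.71, 4.06 and 3.87 FPKM in shTMPRSS4 libraries, against 1.46, 2.27 and 1.71 FPKM in control libraries. The rise of AMBP, a log2 fold change of 1.12 ± 0.19, turned to -0.09 with TMM and -0.07 with DESeq2 size factors set over the table. Since 73.3% of all tested genes were higher, 3 of 3 higher is near the background of the table.

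The ratio of SPINK1 to PLAU within a library was 4.92, 4.99 and 5.18 in shTMPRSS4 libraries, against 0.483, 0.664 and 0.461 in control libraries. SPINK1 was thus above PLAU in all 3 shTMPRSS4 libraries and below it in all 3 control libraries. With 0.1 FPKM added, the log2 ratio differed by 3.21 ± 0.16 (SE) between shTMPRSS4 and control libraries (two-sided exact permutation test, p = 0.1, the smallest that 3 against 3 allows; adjusted p = 0.1 over 2 ratios). Here too the p was fixed in advance, since SPINK1 was listed as higher and PLAU as lower, each without overlap. SPINK1 is known for inhibiting trypsin, so the ratio sets 2 transcript levels side by side and is no measure of the inhibition of urokinase.

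**Figure D4:**
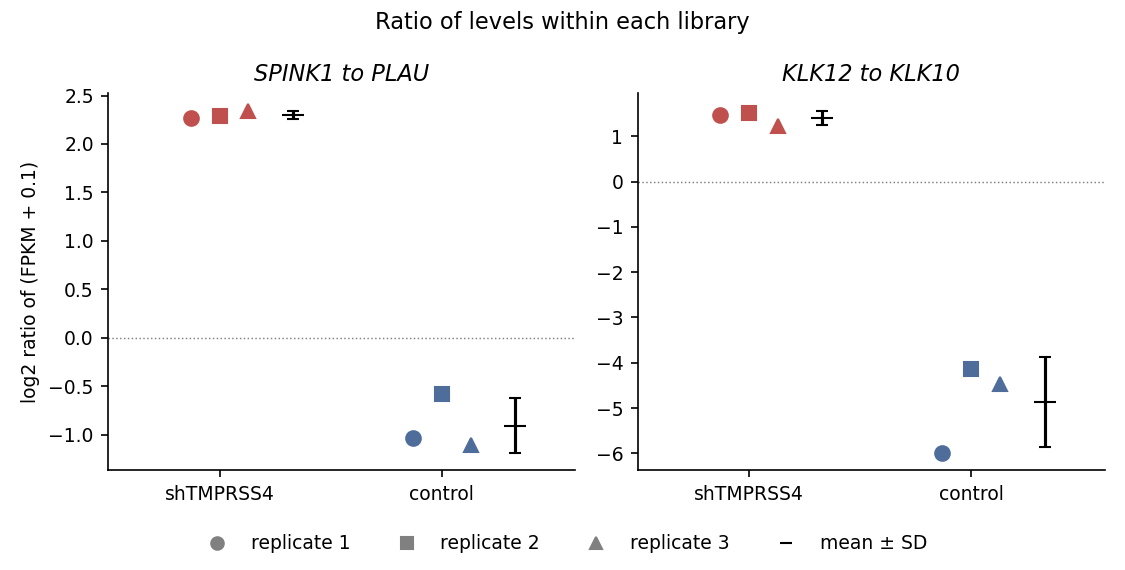
Log2 ratio of levels within each library, after adding 0.1 FPKM, for SPINK1 to PLAU and KLK12 to KLK10; symbols mark the replicate, black bars the mean ± SD of 3 libraries and the dotted line equal levels. Both ratios lie above 0 in the 3 shTMPRSS4 libraries and below 0 in the 3 control libraries.

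Of 44 trypsins and other secreted proteases of the trypsin fold 4 were in the table, 2 higher and 2 lower. Of all 705 tested genes 73.3% were higher and 25.8% lower. CELA3A, a pancreatic elastase, had 3.15, 4.34 and 3.29 FPKM in shTMPRSS4 libraries, against 0.28, 0.34 and 0.26 FPKM in control libraries. PRSS27, a trypsin-like protease, differed by 1.84 ± 0.50 on the log2 scale (SE). Prothrombin, F2, averaged 0.183 ± 0.0737 and 0.70 ± 0.368 FPKM, and the complement protease C1S 0.35 ± 0.0794 and 0.86 ± 0.14 FPKM, in shTMPRSS4 and control libraries (SD, n = 3 each). The elastase and PRSS27 rose, and F2 and C1S fell. Counts were low, with 23 in all for CELA3A in control libraries and 44 for F2 in shTMPRSS4 libraries. None of the 22 membrane-anchored serine proteases was among the genes analysed here.

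The profiles of the members were set beside those of 385 other genes averaging 1 FPKM or more, by the root mean square difference over 6 libraries of log2 levels relative to the control mean. The nearest profiles to PLAU were KLK10, at 0.0672 log2 units, and SERPINA5, at 0.0868. To KLK10 the nearest were SCD5, a stearoyl-CoA desaturase, at 0.0590 and MAT1A, a methionine adenosyltransferase, at 0.0658. SERPINA3 lay nearest to SMIM5 at 0.109 and G0S2, an inhibitor of the triglyceride lipase ATGL, at 0.1196. SPINK1 lay nearest to SBK1 at 0.117 and DYNLRB1, a dynein light chain, at 0.118. KLK12 had no close match, with RASD2 at 0.589 and the endocrine transcription factor NEUROG3 at 0.612. The KLK12 control levels of 0, 0.23 and 0.18 FPKM lie near the floor. Their scatter, on a log2 scale with 0.1 FPKM added, enters both distances, so these do not show a distinct profile. NEUROG3 averaged 11.6 ± 0.831 FPKM in shTMPRSS4 libraries and 0.247 ± 0.00577 FPKM in control libraries (SD, n = 3 each). These distances describe 6 libraries in 2 groups and carry no test.

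By the annotation terms in the table, all 5 members belong to the extracellular region, as do 130 genes of the table (17.3%), of which 81 were higher and 49 lower in shTMPRSS4 libraries. Of all 753 genes, 555 (73.7%) were higher and 198 (26.3%) lower. The term for serine-type endopeptidase inhibitors held 7 genes, 4 higher and 3 lower. The 3 lower ones were the serpins SERPINA3, SERPINA4 and SERPINA5, and the 4 higher ones were SPINK1, SPINK4, AMBP and ITIH4. PLAU was the only member with the term for response to hypoxia, which 12 genes carried, 8 higher and 4 lower.

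The directions of the 5 members held under each scaling tried, but their sizes depended on it. When the scale was set over the listed genes alone, the median log2 fold change of the tested genes moved by -1.20 with TMM, -1.16 with DESeq2 and -0.66 with upper-quartile scaling, and the split of genes passing became 167 higher and 190 lower with TMM and 197 and 197 with DESeq2. SPINK1 then had a log2 fold change of 0.50 with TMM and 0.54 with DESeq2, while PLAU had -2.74 and -2.71 and SERPINA3 -2.24 and -2.20.

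**Figure D5:**
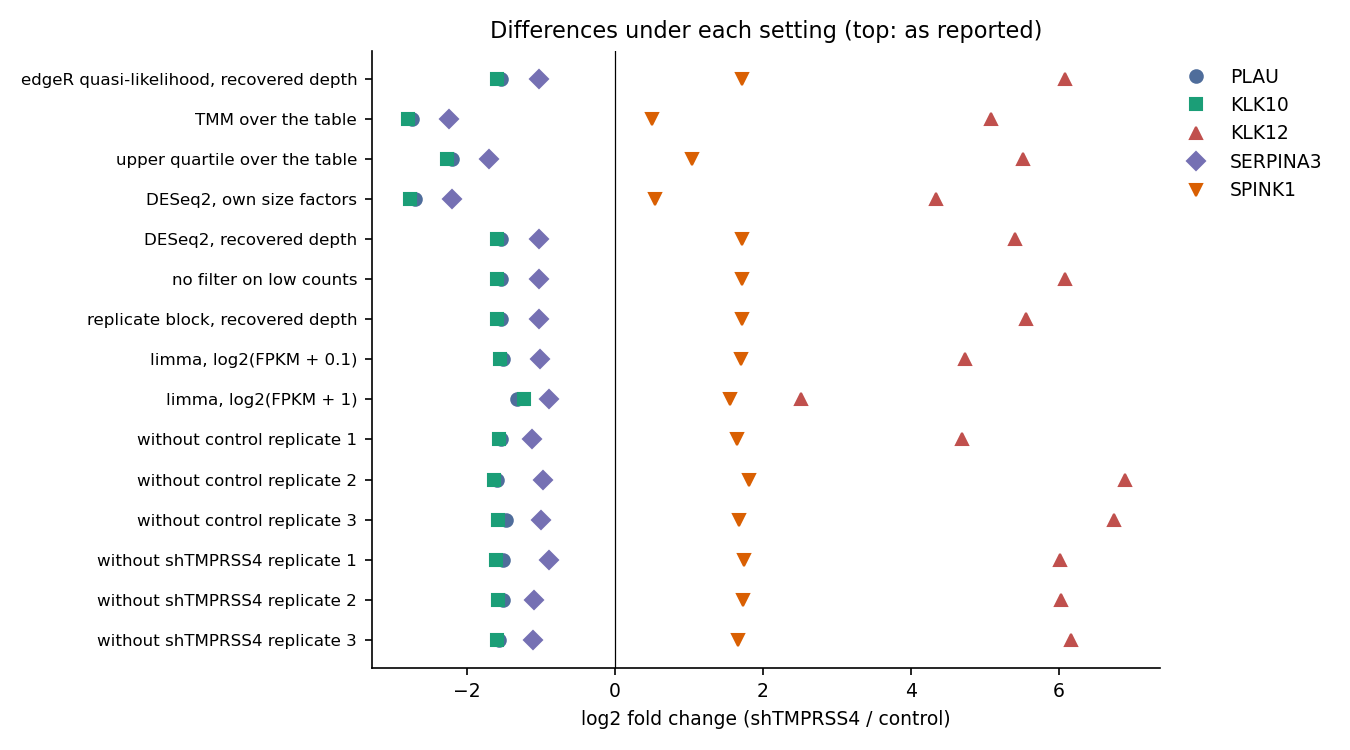
Log2 fold change of shTMPRSS4 over control (horizontal axis) of the 5 members under each setting of the analysis (rows; the top row is the value as reported). PLAU, KLK10 and SERPINA3 stay below 0 and KLK12 and SPINK1 above 0 in every row, with SPINK1 lowest at 0.50 under TMM scaling.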

How the data were processed

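RNA from 3 shTMPRSS4 and 3 control AsPC-1 samples was enriched with oligo(dT) beads and sequenced on an Illumina instrument, per the labels. The authors deposited 1 table of read counts and FPKM values per gene and library, with their mean FPKM, log2 fold change, p-value and FDR, per the file headers. The submitters' processing notes name Bowtie 0.12.2 together with mouse genome builds (mm8, mm9), whereas the identifiers are human Ensembl genes, so the reference used is uncertain. For the counting tool and the authors' test, nothing is given in the sources used here. The authors' FDR values were adjusted over 15117 genes, and those not listed were not analysed here.

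Relative depth was the median ratio of count to FPKM over 159 genes with at least 200 counts, and absolute depth came from 12 genes with 1 transcript in GENCODE release 29 (GRCh38), which matched all 753 identifiers and gave the coordinates. The deposited counts were tested with edgeR 4.0.16 in R 4.3.3 (quasi-likelihood, robust, low-count filter, recovered depth) and adjusted over the 705 genes that passed the filter. Log2 fold changes used depth-scaled counts plus 0.5. Alternatives were TMM and upper-quartile scaling, DESeq2 1.42.0, no filter, a replicate block, limma 3.58.1 on log2 FPKM and leaving out each library. The edgeR step was tested on simulated counts. Permutation tests used scipy 1.17.1. Shared sequence was counted as 31-base runs of GENCODE transcripts found in other genes on either strand. Promoter windows came from RefSeq (GRCh38.p14), and all 5 members matched; of 2 starts, the one near more GENCODE coding transcripts was printed, or on a tie the one at the lower coordinate. The members, gene lists and tests were chosen with earlier results of these data known. Named genes were the members, up to 4 table genes of each list, the 2 nearest profiles of each member and neighbouring genes in the table; ITIH4 was named after its values were seen.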

Additional observations from a re-analysis of the deposited data

How the results depend on the processing

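The number of genes passing the test was 699 of 705 tested. It was 357 of 705 with TMM over the table and 394 of 753 with DESeq2 and its own size factors. On these scales the median log2 fold change of the selected genes lay near 0, at 0.0881 with TMM and 0.125 with DESeq2. Which scale is right was not tested. Of the calls under TMM and DESeq2, 352 and 356 were shared with the 699. The other alternatives for this count stayed within 1.5 times, and leaving out 1 library gave 697 to 708. All 5 members kept their direction and passed under all 14 alternatives tried for each. Selection on this same contrast favours that under most settings, since 682 of 705 tested genes passed with a replicate block. With TMM only 357 of 705 passed, and how many listed genes passed under all 14 alternatives was not counted. Leaving out 1 library gave log2 fold changes of -1.60 to -1.47 for PLAU, -1.63 to -1.57 for KLK10, 4.68 to 6.89 for KLK12, -1.13 to -0.89 for SERPINA3 and 1.64 to 1.81 for SPINK1. Without control replicate 3, the only library with the code L3 in its label, these were -1.47, -1.59, 6.74, -0.996 and 1.67. KLK12 was the member most open to the choice of an added value, at 2.51 with limma on log2(FPKM + 1). The 2 ratios kept their direction under 10 alternatives each, at 2.88 to 3.37 for SPINK1 to PLAU and 3.75 to 7.77 for KLK12 to KLK10, and no exact p could fall below 0.1. Same-numbered libraries did not deviate together (correlations of -0.0723, -0.0594 and -0.0215), so the numbers were not taken as pairs. With the replicate number as a block 682 genes passed, and the members had log2 fold changes of -1.54 for PLAU, -1.60 for KLK10, 5.56 for KLK12, -1.03 for SERPINA3 and 1.71 for SPINK1. The blocked ratio differences were 3.21 and 6.28, with an exact sign-flip p of 0.25. Depth limits KLK12 most, with 13 control counts, and the size of its fold is imprecise.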
